A study of Mus musculus with 48 samples.

Results

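Antisense noncoding genes that lie across a protein-coding gene were followed together with the coding gene they overlap in RNA sequencing of the mouse amygdala. A gene of the deposited expression table was taken as a member when the GENCODE M21 annotation gave it the class antisense and when its span overlapped a protein-coding gene on the opposite strand. Of 52636 genes in the table, 2715 were of that class, 2490 met the rule and 225 did not overlap a coding gene on the other strand. The overlapped coding gene with the most shared bases was taken as the partner, which gave 2183 different partners, since 1 coding gene can carry several antisense genes. The rule used only annotation and no measured level.

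Antisense genes are transcribed from the strand opposite to a coding gene, usually by RNA polymerase II, and most are spliced and polyadenylated like mRNA. In head-to-head pairs, as the term is used here, each gene starts inside the other, at any distance, and runs in the opposite direction. Tail-to-tail pairs converge so that their ends cover each other, and others lie wholly inside the coding gene, often within an intron. Well-known antisense genes act in imprinting, where Airn and Kcnq1ot1 silence neighbouring genes on the paternal chromosome, and others are thought to act on the chromatin or the splicing of the partner, but for most no role is known.

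The samples were punches of the right amygdala from 48 female mice of the line that the labels give as C57BL/6NTac-Brd1, 8 to 11 weeks old, with 8 mice in each of 6 groups. Wild-type mice (WT) were compared with Brd1+/- litter-matched mice, which carry a targeted deletion of 1 copy of Brd1, the gene of a bromodomain protein found in histone acetyltransferase complexes. Mice of each genotype received saline (vehicle), imipramine at 10 mg/kg (IMN), a tricyclic antidepressant, or fluoxetine at 5 mg/kg (FLX), a selective serotonin reuptake inhibitor, and all 6 groups went through the same injections and behavioural tests before the tissue was taken. The question put to the antisense genes was whether a reduced dose of Brd1 shifts their levels and whether either antidepressant acts on such shifts. Levels are given in TPM, a share of all transcripts in the library after scaling by gene length, so that genes can be compared with each other. Sequencing depth cannot be recovered from such values, and no interval for counting error is given. Group means are followed by ± SD over the 8 mice of the group, and differences between groups on the log2(TPM + 0.1) scale by ± SE.

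The sequences that follow are exons of the antisense genes on which the results turn, read from the GENCODE M21 transcripts on GRCm38. They are written 5′ to 3′ in the direction of the antisense gene, and capitals mark bases whose reverse complement is coding sequence of the partner. The first belongs to a gene that was lower in Brd1+/- vehicle mice: exon 2 of Gm42477 (chr16:5012386-5012587, plus strand) holds 83 bases opposite the coding sequence of Rogdi. The next 3 belong to genes that were higher in those mice and that share no exonic base with the partner: exon 2 of Gm10538 (chr1:132731600-132731666, plus strand), inside Nfasc, exon 1 of Gm11659 (chr11:104259294-104259361, minus strand), inside Mapt, and exon 2 of Rab11fip4os1 (chr11:79615835-79615896, minus strand), inside Rab11fip4. The last, 150 bases of exon 2 of Gm10143 (chr19:10199939-10200088, plus strand), lies wholly opposite coding sequence of Fen1.
Gm42477: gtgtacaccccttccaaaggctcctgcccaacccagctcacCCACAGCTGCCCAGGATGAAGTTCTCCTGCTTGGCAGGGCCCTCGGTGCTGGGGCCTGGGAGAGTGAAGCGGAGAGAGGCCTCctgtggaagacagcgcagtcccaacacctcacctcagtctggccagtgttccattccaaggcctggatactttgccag
Gm10538: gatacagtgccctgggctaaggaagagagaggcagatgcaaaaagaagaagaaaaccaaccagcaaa
Gm11659: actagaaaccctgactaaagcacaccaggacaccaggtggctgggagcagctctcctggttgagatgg
Rab11fip4os1: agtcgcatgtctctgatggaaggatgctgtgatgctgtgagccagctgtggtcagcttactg
Gm10143: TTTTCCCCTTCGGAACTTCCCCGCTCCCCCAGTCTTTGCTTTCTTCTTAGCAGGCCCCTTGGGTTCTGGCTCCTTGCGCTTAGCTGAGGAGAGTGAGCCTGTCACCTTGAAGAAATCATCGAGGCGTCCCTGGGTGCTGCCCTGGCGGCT
Where bases of both strands are exonic, as in Gm42477 and Gm10143, a read can come from either gene. The sources do not say if strand entered the counting, so over such stretches reads of the antisense gene and of its partner cannot be told apart. Unspliced RNA of the partner can also give reads over antisense exons in its introns, and these cannot be told apart either.

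Most antisense genes lay inside the coding gene. Of the 2490, 1456 (58.5%) lay wholly inside the partner, 562 (22.6%) overlapped it head-to-head, 385 (15.5%) overlapped it tail-to-tail and 87 (3.49%) reached around it. Exonic bases were shared with the partner by 1487 of them, for which a median of 22% of the exonic bases was shared, and 1085 shared coding bases. The other 1003 shared none. Their median exonic length was 949.5 bases against 3496.5 bases for protein-coding genes, and 164 had a single exon.

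Levels of the antisense genes were low. In all 48 libraries 646 were listed at 0, 1256 reached 0.1 TPM in at least 8 libraries, 539 had a mean of at least 1 TPM and 48 a mean of at least 10 TPM. Among the 539 the median level was 2.53 TPM against 36.1 TPM for their partners, and 64 had a higher mean than the partner. The 5 most abundant were 9530082P21Rik (mean 78.0 TPM, head-to-head with Kremen2), 4933431E20Rik (69.6 TPM, tail-to-tail with Eps8l3), Tug1 (55.7 TPM, head-to-head with Morc2a), E130307A14Rik (52.9 TPM, tail-to-tail with Traf3ip2) and 2810468N07Rik (51.2 TPM, head-to-head with Sox8). Tug1, a widely expressed long noncoding RNA, was the steadiest of these between groups, with group means from 54.6 ± 5.33 (WT IMN) to 56.9 ± 5.83 TPM (Brd1+/- vehicle). 4933431E20Rik had group means from 62.7 ± 9.24 (WT vehicle) to 75.4 ± 13.6 TPM (Brd1+/- FLX) and E130307A14Rik from 48.6 ± 11.6 (Brd1+/- FLX) to 58.7 ± 15.4 TPM (Brd1+/- IMN). 2810468N07Rik had the widest spread of the 5, from 18.5 to 124.6 TPM among Brd1+/- FLX libraries, in which its partner Sox8 ran from 44.7 to 101.8 TPM.

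Brd1 itself was lower in Brd1+/- mice in each treatment (vehicle 26 ± 2.90 against 35.6 ± 5.09 TPM, IMN 23.4 ± 4.84 against 36.9 ± 2.83 TPM, FLX 23.5 ± 3.49 against 32.9 ± 4.45 TPM), and it passed the test across all genes in FLX mice (log2 -0.49, limma adjusted p = 0.0362) but not in vehicle (limma adjusted p = 0.0512) or IMN mice (limma adjusted p = 0.102). No antisense gene has Brd1 as its partner. Markers of amygdala neurons summed to 883 to 2971 TPM in WT vehicle libraries, but the libraries also carried RNA of neighbouring tissue. In that group markers of striatal projection neurons summed to 101 to 7290 TPM and those of choroid plexus and ciliated ependyma to 20.4 to 29417 TPM. In such bulk tissue fewer cells of a type and less RNA per cell cannot be told apart.

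Gssos2 and Gm42477 were present in every WT vehicle library and listed at 0 in most Brd1+/- vehicle libraries. Gssos2 is read from the opposite strand at the start of Gss, the gene of glutathione synthetase, with 385 shared exonic bases (44.3% of its exons). Its level ran from 0.447 through a median of 2.54 to 4.60 TPM in WT vehicle mice. In Brd1+/- vehicle mice 6 of 8 libraries were at 0 and the highest was 2.33 TPM, so the groups overlapped. The difference was -3.48 ± 0.75 on the log2(TPM + 0.1) scale (SE, limma adjusted p = 0.0393, Benjamini-Hochberg over all genes). The call was lost when any of 12 of the 16 libraries was left out (limma adjusted p up to 0.115) and kept only without WT vehicle replicate 1 or 4 or Brd1+/- vehicle replicate 4 or 7. Gm42477 covers most of Rogdi from its end, 4689 bases, a gene whose loss in humans causes an epileptic disorder with defective tooth enamel, and 240 exonic bases are shared (51.2%). It ran from 0.990 through 1.52 to 3.74 TPM in WT vehicle mice, while 6 of 8 Brd1+/- vehicle libraries were at 0 and the highest was at 1.19 TPM (log2 -3.18 ± 0.60, limma adjusted p = 0.0137). Here too the groups overlapped, and the call was lost without Brd1+/- vehicle replicate 4 (limma adjusted p = 0.0522). In this contrast both genes met the low-level filter (0.1 TPM in at least 8 libraries) through the WT vehicle libraries, where they were higher. Their p-values here are therefore no support of their own.

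Their partners moved less. In Brd1+/- vehicle mice Gss had 30.4 ± 9.56 TPM against 22.6 ± 5.49 TPM in WT (log2 0.41 ± 0.19, limma adjusted p = 0.582), and Rogdi 250 ± 69.5 against 281 ± 84.2 TPM (log2 -0.15 ± 0.20, limma adjusted p = 0.913). In the drug-treated groups both antisense genes were detected in some libraries and not in others, whatever the genotype. Gssos2 was at 0 in 4 of 8 WT IMN libraries (highest 3.05 TPM), in 3 Brd1+/- IMN libraries (3.67 TPM), in 3 WT FLX libraries (3.29 TPM) and in 2 Brd1+/- FLX libraries (3.74 TPM). Gm42477 was at 0 in 4 WT IMN, 2 Brd1+/- IMN, 2 WT FLX and 4 Brd1+/- FLX libraries. The WT vehicle group was thus the only one with both genes above 0 in every library. Across genotypes neither gene passed the test in IMN (log2 0.54, adjusted p = 1 for Gssos2; 1.36, adjusted p = 1 for Gm42477) or FLX mice (log2 0.27, limma adjusted p = 0.919; -1.05, limma adjusted p = 0.645). The IMN by genotype interaction of Gm42477, the difference of the drug effects in the 2 genotypes, was 4.54 ± 1.15 (log2, limma adjusted p = 0.068).

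In vehicle mice 13 of 949 antisense genes tested were called, meaning an adjusted p under 0.05 in limma, 11 of them higher and 2 lower in Brd1+/- mice. Of all genes tested 0.708% were called. The 11 that rose were all spliced genes inside the coding gene, and 8 of the 11 shared no exonic base with it. For these 8, reads of unspliced partner RNA and of the antisense gene cannot be told apart. By role of the partner they lay in genes of the axon and cytoskeleton (Gm10538 in Nfasc, Gm11659 in Mapt, Gm12925 in Macf1), of protein phosphatase 2A (4933407I08Rik in Ppp2r2b, Ppp2r2cos in Ppp2r2c), of membrane traffic and signalling (Rab11fip4os1 in Rab11fip4, Rptoros in Rptor, Gm15880 in Crtc3), of splicing and DNA methylation (Srrm3os in Srrm3, Dnmt3aos in Dnmt3a) and in Frmd4a (1700080N15Rik). Gm15880, 1700080N15Rik and Rptoros were named after their values were seen. Together the 11 summed to a median of 2.00 TPM in WT vehicle (0.888 to 3.13 TPM) and 10.3 TPM in Brd1+/- vehicle libraries (6.5 to 14.3 TPM), the values that chose them. In the 4 groups that did not enter the choice the median sum was 2.24 (WT IMN), 1.97 (Brd1+/- IMN), 1.76 (WT FLX) and 1.69 TPM (Brd1+/- FLX).

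**Figure D1:**
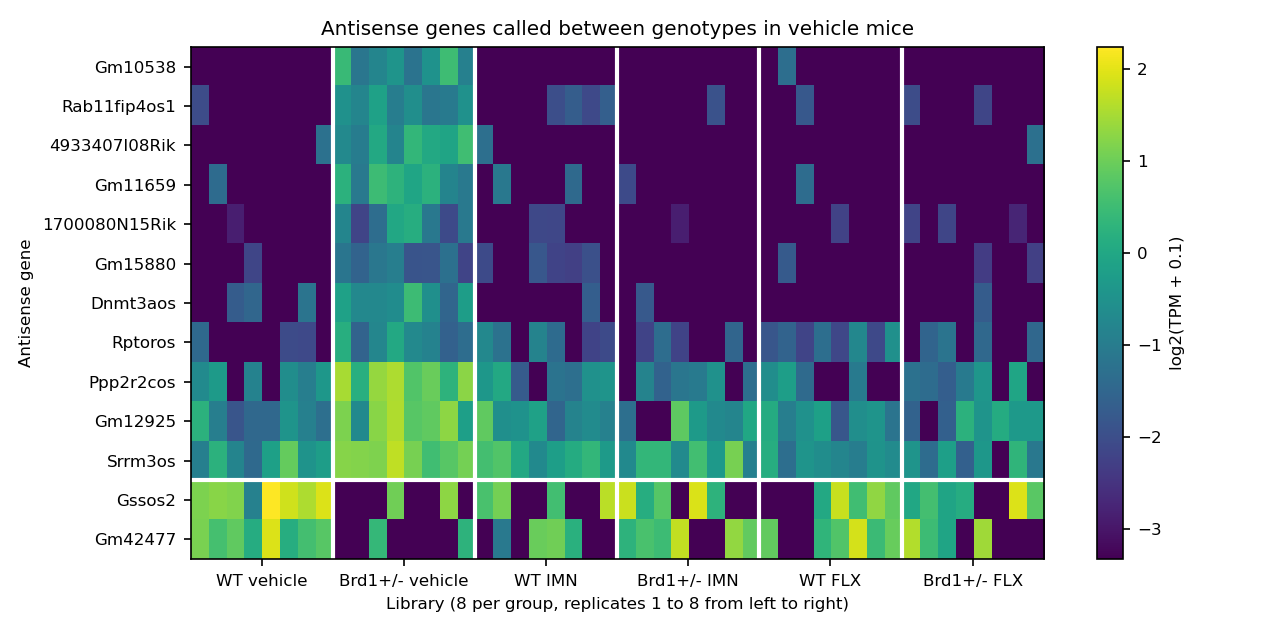
Level of the 13 antisense genes called between genotypes in vehicle mice, as log2(TPM + 0.1) by colour, with 1 column per library (8 per group) and 1 row per gene. The 11 upper genes are brighter by mean in the Brd1+/- vehicle than in the WT vehicle block, the contrast that chose them. Colours are not scaled by row. Srrm3os (mean 0.776 TPM in WT vehicle) and Gm12925 (1.75 TPM in WT IMN replicate 1) also show in other blocks. Gssos2 and Gm42477 are dark in 6 of the 8 Brd1+/- vehicle libraries.

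Several of these genes went from near absence to detection in every Brd1+/- vehicle library. Gm10538, inside the gene of the axonal adhesion molecule neurofascin, was listed at 0 in all 8 WT vehicle libraries and ran from 0.332 through 0.541 to 1.33 TPM in Brd1+/- vehicle mice (limma adjusted p = 2.01e-05). It was also at 0 in every IMN and Brd1+/- FLX library, and 1 WT FLX library held 0.302 TPM. Rab11fip4os1, inside the gene of a Rab11 effector of recycling endosomes, was at 0 in 7 of 8 WT vehicle libraries (highest 0.145 TPM) and ran from 0.354 to 0.812 TPM in Brd1+/- vehicle mice, with no overlap (log2 2.45 ± 0.25, limma adjusted p = 3.7e-05). Its highest value in the 4 drug groups was 0.221 TPM.

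The same held for 4933407I08Rik and Gm11659. 4933407I08Rik ran from 0.405 through 0.878 to 1.35 TPM in Brd1+/- vehicle mice against at most 0.318 TPM in WT vehicle mice, 7 of which were at 0 (log2 2.86 ± 0.34, limma adjusted p = 0.000187). Gm11659, inside the gene of the microtubule protein tau, ran from 0.374 through 0.969 to 1.3 TPM against at most 0.287 TPM (log2 2.86 ± 0.35, limma adjusted p = 0.000218). 1700080N15Rik (limma adjusted p = 0.00153) ran from 0.122 to 1.00 TPM against at most 0.0387 TPM. Dnmt3aos ran from 0.250 to 1.3 TPM against 0 to 0.338 TPM and Rptoros from 0.232 to 1.02 TPM against 0 to 0.270 TPM, so that for these the groups overlapped (log2 2.12 ± 0.40, adjusted p = 0.0137; log2 1.95 ± 0.37, limma adjusted p = 0.0145). Of the 11 genes, 4 passed the low-level filter (0.1 TPM in at least 8 libraries) in comparisons without the Brd1+/- vehicle libraries, where 0 of them were called. The other 7 passed it only in comparisons that hold these libraries, and a gene that enters that way had to differ.

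In Brd1+/- vehicle mice 3 of the 11 had a mean above 1 TPM. Ppp2r2cos, inside the gene of a regulatory B subunit of protein phosphatase 2A, ran from 1.04 through 2.09 to 2.85 TPM in Brd1+/- and from 0 through 0.493 to 0.719 TPM in WT vehicle mice, with no overlap (log2 2.28 ± 0.47, limma adjusted p = 0.027). Srrm3os, inside the gene of a splicing factor for neuronal microexons, had 2.1 ± 0.536 against 0.776 ± 0.481 TPM (log2 1.46 ± 0.29, limma adjusted p = 0.0232). Gm12925, inside the gene of a linker of microtubules and actin, had 1.78 ± 0.800 against 0.449 ± 0.293 TPM (log2 1.77 ± 0.36, limma adjusted p = 0.0257). For Srrm3os and Gm12925 the groups overlapped. These 3 calls were lost in 6, 7 and 10 of the 16 fits that left out 1 library, in the same order, with adjusted p up to 0.0946 for Ppp2r2cos without Brd1+/- vehicle replicate 4.

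None of the 11 partners was called, and their differences lay between -0.30 and 0.28 (log2, limma adjusted p from 0.445 to 0.955). Mapt, for example, had 210 ± 34.3 against 192 ± 93.3 TPM and Nfasc 141.7 ± 37.3 against 120 ± 28.0 TPM. The partners were abundant and long: their mean levels over all libraries ran from 14.9 to 263 TPM with a median of 103 TPM, against a median of 30.1 TPM for the partners of all tested antisense genes, and their median span was 108 kb against 44.8 kb. All 11 genes lie inside the partner, which takes a partner longer than the antisense gene. The medians for comparison cover all arrangements, so the contrast is no trait of the called genes alone. Of the 869 partners of tested antisense genes 1 was called.

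**Figure D2:**
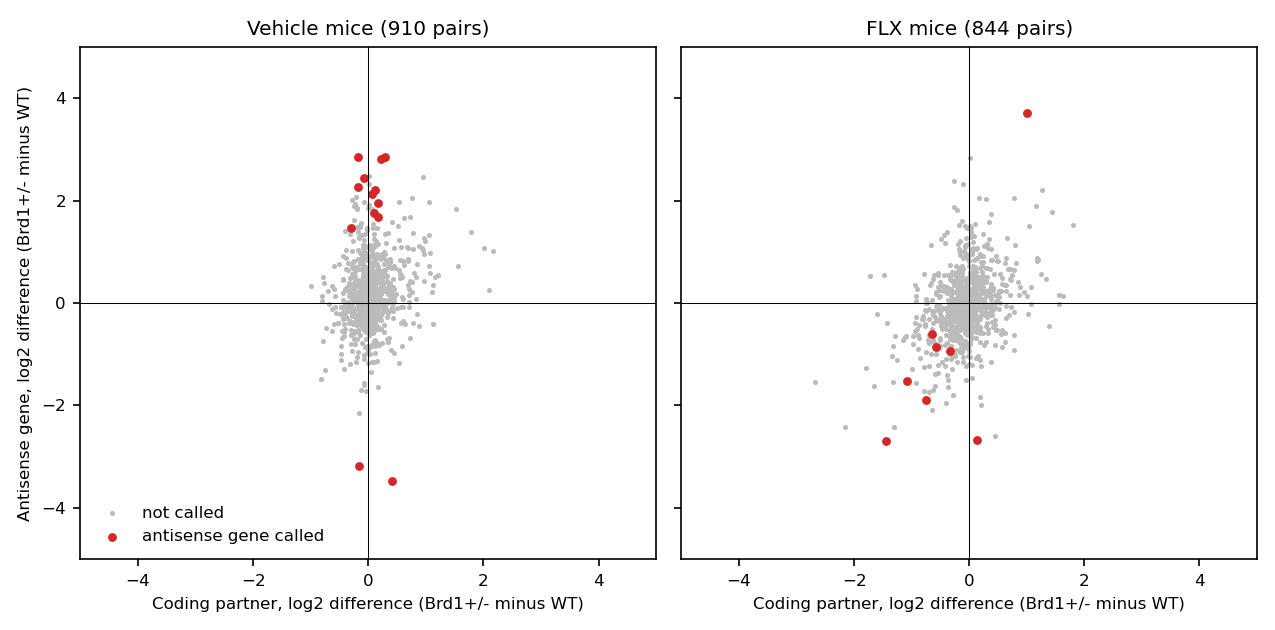
Each point is an antisense gene tested together with its coding partner in vehicle mice (910 pairs) or FLX mice (844 pairs), with the log2 difference between Brd1+/- and WT of the partner on the x axis and of the antisense gene on the y axis. The antisense genes called (red) lie near 0 on the partner axis in vehicle mice, while 7 of the 8 shown in FLX mice lie on the same side of 0 as the partner. In FLX mice 39.4% of the partners of tested antisense genes were above 0, so a partner below 0 was the common case.

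Over all 949 antisense genes tested, called ones included, the median difference was 0.14 (log2) against 0.03 for all genes, and 593 (62.5%) were above 0 against 55.5% of all genes. It was 0.24 for the 448 genes inside the partner (11 called), 0.06 for the 274 head-to-head (1 called) and 0.10 for the 195 tail-to-tail (1 called). It was 0.24 for the 263 genes without a shared exonic base and 0.10 for the 686 with one. Values for other classes of transcripts stand beside it: TEC genes, a GENCODE class that still awaits experimental testing, had a median of 0.27 with 76 of 1268 called, and sense-intronic genes a median of 0.29 with 16 of 128 called, whereas protein-coding genes had a median of 0.01 with 13 of 15274 called. The filter also let in genes detected mainly in Brd1+/- vehicle libraries, and such genes had to be above 0. In IMN mice 877 antisense, 1066 TEC and 96 sense-intronic genes passed it, against 949, 1268 and 128 here. The medians and shares above 0 are therefore a description and no support for a shift. Between 1000 and 1159 antisense genes were above 0 in a Brd1+/- vehicle library (median 1057) against 895 to 1007 in a WT vehicle library (median 962). All genes above 0 numbered 25387 to 27252 against 24335 to 25611, and the median of the antisense genes above 0 in the 4 drug groups was 921.5 to 951.

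Among marker lists that moved with this contrast, the 6 oligodendrocyte markers summed to 2195 to 15522 TPM (median 5251) in Brd1+/- vehicle and 642 to 10381 TPM (median 1830) in WT vehicle libraries, with 0 of 6 called and a median log2 difference of 1.51, and their part in the result was not tested. The count of 13 fell to 6, 7 or 8 when Brd1+/- vehicle replicate 1, 3, 4, 5 or 8 was left out and rose to 20 without WT vehicle replicate 1. With 1 fit of all 48 libraries 22 were called, all of them higher, and the calls of Gssos2 (adjusted p = 0.0753) and Gm42477 (adjusted p = 0.0763) were lost.

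In IMN mice 0 of 877 antisense genes tested differed between genotypes in limma, with 38 at an unadjusted p under 0.05, and 0.017% of all genes were called. Imipramine against vehicle in WT mice called 0 of 890 antisense genes in limma, with 64 at an unadjusted p under 0.05, and 0% of all genes.

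In Brd1+/- mice the antisense genes called were lower in both drug groups than with vehicle. Sample codes part these groups from vehicle in the same way, so drug and code range cannot be told apart. Imipramine called 11 of 935 antisense genes, all lower, where 0.776% of all genes were called, and fluoxetine 16 of 950, all lower, where 0.731% were called. These comparisons share the Brd1+/- vehicle libraries with the genotype comparison in vehicle mice, so their values are given side by side and not as separate support. Of the 11 genes higher in Brd1+/- vehicle mice, 9 were called lower with imipramine and 9 with fluoxetine. Ppp2r2cos fell by 2.61 with imipramine (SE 0.42, limma adjusted p = 0.0035) and by 2.53 with fluoxetine (SE 0.45, limma adjusted p = 0.0086) on the log2 scale, to medians of 0.330 and 0.307 TPM. Gm11659 fell by 2.95 with imipramine (SE 0.30, limma adjusted p = 3.2e-05) and was listed at 0 in every Brd1+/- FLX library (limma adjusted p = 7.24e-06). 4933407I08Rik (limma adjusted p = 1.27e-06) and Gm10538 (limma adjusted p = 1.71e-05) were at 0 in every Brd1+/- IMN library. Dnmt3aos fell by 2.63 with imipramine (SE 0.31, limma adjusted p = 0.000139), to 0 in 7 of 8 libraries. Srrm3os fell by 2.11 with fluoxetine (SE 0.41, limma adjusted p = 0.0158), to between 0 and 1.15 TPM. Genes at 0 in nearly every drug library passed the filter only through the vehicle libraries, where they had to be higher, so their p-values are no support of their own. Calls over all genes went the same way, 184 of 188 lower with imipramine and 175 of 178 lower with fluoxetine. The 6 oligodendrocyte markers, 0 of them called, had a median log2 difference of -1.03 with imipramine and -0.82 with fluoxetine, and their sums ran from 1097 to 6458 TPM with imipramine and from 852.7 to 16268 TPM with fluoxetine. The 4 endothelial markers, 0 of them called, had -0.40 and -0.22, and the part of either list in the result was not tested.

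Fluoxetine also called genes in Brd1+/- mice that were not among the 11. D830024N08Rik, inside Tecr, the gene of a reductase of very long chain fatty acid synthesis, fell by 0.96 on the log2 scale (SE 0.16, limma adjusted p = 0.0056), from 2.02 ± 0.269 to 0.998 ± 0.211 TPM. Its groups did not overlap, at 1.61 to 2.57 against 0.746 to 1.43 TPM. Gm31224, inside the kinesin gene Kifc3, ran from 0 through 1.51 to 3.12 TPM with vehicle and was at 0 in 7 of 8 FLX libraries (log2 -3.22 ± 0.65, limma adjusted p = 0.0215). Named after their values were seen, Gm10558 in Map2, Gm15512 tail-to-tail with Arhgap22, Tbc1d22bos in Tbc1d22b, Gm17058 head-to-head with Cers5 and Gm3227 in Celf4 were also called lower (log2 -1.61 to -2.23), Gm3227 with imipramine as well. Gm31224, Gm10558 and Gm15512 were no longer tested once 1 of the 8 libraries that held at least 0.1 TPM was left out. They passed the filter almost only through the vehicle libraries, where they were higher, so their p-values are no support. No partner of a called gene was called in either comparison. Gm10558, Gm15512, Tbc1d22bos, Gm17058 and Gm3227 lost their fluoxetine calls in 7 to 13 of the 8 to 16 fits without 1 library in which they were tested. The imipramine count was 5 to 7 when Brd1+/- vehicle replicate 1, 3, 4, 5, 6, 7 or 8 was left out, and the fluoxetine count 8 to 10 without Brd1+/- vehicle replicate 1, 2, 3, 4, 5, 6 or 8 or Brd1+/- FLX replicate 3 or 4.

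In FLX mice the genotypes differed in other antisense genes, and there several partners lay on the same side. Of 881 antisense genes tested 9 were called, 7 lower and 2 higher in Brd1+/- mice, where 1.54% of all genes were called, so their share was not above that of all genes. None of these 9 was among the 13 of vehicle mice. Of the 11 that were higher there only 4 were tested here, so most could not be called again. The absence of shared genes is therefore no result about the drug. Of 812 partners of tested antisense genes 25 were called, 22 of them lower. Only 39.4% of these partners and 38.8% of protein-coding genes were above 0. A called lower antisense gene thus had its partner on the same side in the common case. Most WT FLX libraries had sample codes above those of all Brd1+/- FLX libraries, so genotype and code range were partly tied here. With a term for the code range 6 antisense genes were called in place of 9, 2 higher and 4 lower. Calls over all genes also became fewer.

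Gm15893 was the only called antisense gene whose partner was called too. It lies in an intron of Msi2, the gene of the RNA-binding protein Musashi 2, without a shared exonic base, and had 2.35 ± 0.573 TPM in Brd1+/- against 4.30 ± 0.780 TPM in WT FLX mice (log2 -0.87 ± 0.18, limma adjusted p = 0.0286). The groups did not overlap (1.35 to 3.01 against 3.38 to 5.16 TPM). Msi2 had 47.2 ± 9.13 against 70.0 ± 9.76 TPM (log2 -0.58 ± 0.12, limma adjusted p = 0.0284), with overlap (34.8 to 61.5 against 53.1 to 80.3 TPM).

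Gm13629, tail-to-tail with the sodium channel gene Scn9a, ran from 0.910 through 5.11 to 11.5 TPM in Brd1+/- FLX and from 7.84 through 17.9 to 22.3 TPM in WT FLX mice (log2 -1.89 ± 0.38, limma adjusted p = 0.025). Scn9a had 5.55 ± 2.58 against 9.27 ± 3.94 TPM (log2 -0.74 ± 0.29, limma adjusted p = 0.209). Gm26782, head-to-head with the telomerase-associated gene Tep1, had 5.73 ± 3.05 against 15.2 ± 3.80 TPM (log2 -1.51 ± 0.27, limma adjusted p = 0.0153), and Tep1 0.838 ± 0.548 against 1.61 ± 0.258 TPM (log2 -1.08 ± 0.32, limma adjusted p = 0.10). Gm26782 had the higher mean of its pair in all 6 groups.

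The most abundant antisense gene, 9530082P21Rik, had 62.9 ± 8.05 against 96.3 ± 18.1 TPM (log2 -0.60 ± 0.11, limma adjusted p = 0.0209), while Kremen2, the gene of a Dickkopf receptor of the Wnt pathway, ran from 0.385 to 3.49 TPM against 0.950 to 2.53 TPM (log2 -0.65 ± 0.37, limma adjusted p = 0.398). 9330171B17Rik, inside the cilium kinesin gene Kif7, had 1.58 ± 0.505 against 3.13 ± 0.978 TPM (log2 -0.95 ± 0.23, limma adjusted p = 0.0466). B230323A14Rik, head-to-head with Foxb1, a forkhead gene of the developing hypothalamus and thalamus, was at 0 in 5 of 8 Brd1+/- FLX libraries and ran from 0.424 to 2.56 TPM in WT FLX mice (log2 -2.69 ± 0.53, limma adjusted p = 0.0242). Foxb1 differed by -1.45 ± 0.60 (log2, limma adjusted p = 0.234). B230323A14Rik met the filter through the WT FLX libraries, where it was higher, so its p-value is no support. Gm29246, inside Sobp, ran from 0 to 1.07 against 0.728 to 3.20 TPM (log2 -2.67 ± 0.43, limma adjusted p = 0.0113), while Sobp differed by 0.14.

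Higher in Brd1+/- FLX mice were Gm34106 and Gm10648. Gm34106, inside Zmynd10, a gene needed to build the dynein arms of motile cilia, was at 0 in 7 of 8 WT FLX libraries and ran from 0 through 2.50 to 4.75 TPM in Brd1+/- FLX mice (log2 3.72 ± 0.73, limma adjusted p = 0.0242). Zmynd10 differed by 1.00 ± 0.45 (log2, limma adjusted p = 0.265). Gm10648, around Lgals7, was listed at 0 in all 8 WT FLX libraries and ran from 0.10 to 0.561 TPM (limma adjusted p = 0.0141), and Lgals7 was too low to be tested. Gm10648 passed the filter only through the Brd1+/- FLX libraries, and Gm34106 through 7 of them and 1 WT library, so such genes had to differ and their p-values are no support.

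**Figure D3:**
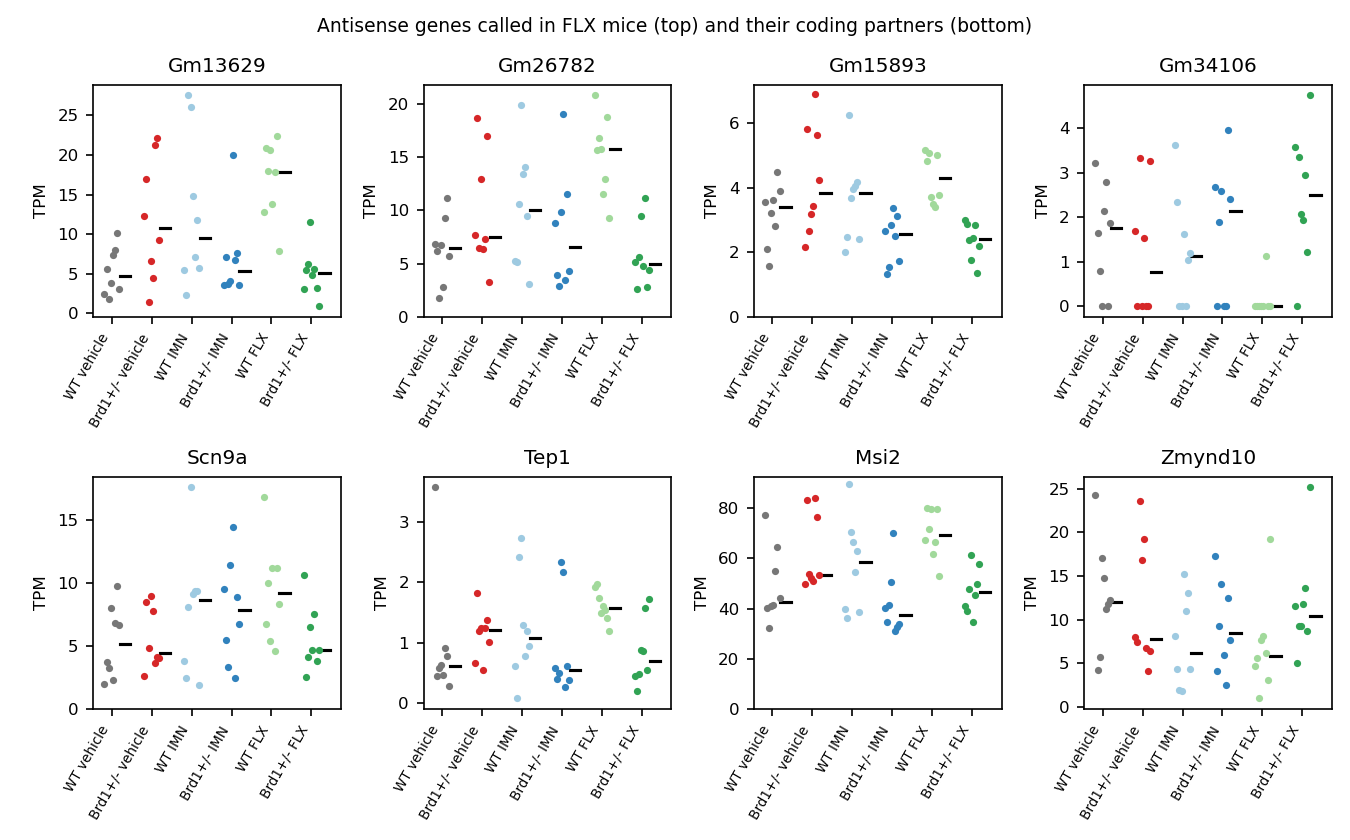
Level in TPM of 4 antisense genes called between genotypes in FLX mice (upper row) and of their coding partners (lower row) in each library of the 6 groups, with a bar at the group median. Gm13629, Gm26782 and Gm15893 are lower and Gm34106 is higher in Brd1+/- FLX than in WT FLX mice.

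Markers of neighbouring tissue moved with this contrast. The 6 hypothalamic or thalamic markers summed to 3.57 to 112 TPM (median 8.40) in Brd1+/- FLX and 9.08 to 1302 TPM (median 89.1) in WT FLX libraries, with 2 of the 5 tested called lower (Fezf1 and Lhx5), and 1 of 6 tested choroid plexus and ciliated markers, Meig1, was called higher. When the 1 WT FLX and 2 Brd1+/- FLX libraries with more than 3000 TPM of striatal, choroid and ciliated, or hypothalamic and thalamic markers were left out, an alternative added after the data had been seen, 1 antisense gene was called in place of 9. In fits without 1 library 9330171B17Rik lost its call in 12 of 16 (limma adjusted p up to 0.107), Gm15893 in 6, Gm13629 and B230323A14Rik in 5, 9530082P21Rik in 3 and Gm34106 in 4 of the 8 in which it was tested, while Gm26782 and Gm29246 kept theirs. The count was 3 to 5 without Brd1+/- FLX replicate 5, 7 or 8 or WT FLX replicate 1, 2, 3 or 7, and 14 without WT FLX replicate 8.

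Fluoxetine against vehicle in WT mice called 1 of 880 antisense genes, where 0.335% of all genes were called. Gm13629 rose (log2 1.79 ± 0.33, limma adjusted p = 0.0326), with 5.29 ± 2.99 TPM after vehicle and 16.8 ± 4.92 TPM after fluoxetine. Scn9a went from 5.30 ± 2.89 to 9.27 ± 3.94 TPM (log2 0.89 ± 0.35, limma adjusted p = 0.21). In this contrast 5 hypothalamic or thalamic markers had a median log2 difference of 2.16 and 6 oligodendrocyte markers one of 1.21, with 0 called in either list, and their part in the result was not tested. Without the libraries high in markers of other tissues 14 antisense genes were called. The call of Gm13629 rested on single libraries: it was lost in 9 of 16 fits without 1 library, and the count was 0 without WT FLX replicate 1, 3, 4, 5 or 7 or WT vehicle replicate 2, 4 or 8, 2 without WT vehicle replicate 3, 4 without WT FLX replicate 6, 10 without WT FLX replicate 8, 15 without WT vehicle replicate 7 and 24 without WT vehicle replicate 1. Of 813 partners 5 were called, among them Zfhx2 (log2 -0.47, limma adjusted p = 0.0421), whose tail-to-tail antisense gene Zfhx2os differed by -0.08.

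The drug effect differed between genotypes for 14 of 1146 antisense genes with imipramine, where 0.536% of all genes were called, and for 22 of 1150 with fluoxetine, where 1.71% were called. All 14 and 21 of the 22 had the lower drug effect in Brd1+/- mice, as did all but 1 of 143 and all but 47 of 455 called genes of any class, and the share of antisense genes called with fluoxetine (1.91%) was near that of all genes. The 6 oligodendrocyte markers had median interactions of -1.95 (imipramine) and -2.07 (fluoxetine) and the 6 hypothalamic or thalamic ones -1.42 and -4.22 (log2), with 0 called in either list, and their part in the result was not tested. The interactions use the same libraries as the comparisons already given. In both genotypes vehicle and drug libraries lie in separate ranges of sample codes, so drug and code range cannot be told apart. With imipramine, 8 of the 11 genes that were higher in Brd1+/- vehicle mice were called, such as Rab11fip4os1 (log2 -3.01 ± 0.41, limma adjusted p = 4.55e-05) and 4933407I08Rik (limma adjusted p = 5.9e-05). Both passed the filter mainly through the Brd1+/- vehicle libraries that chose them. Genes that enter that way had to differ, so their p-values are no support. Gm14224, inside the cytoskeletal gene Epb41l1, was at 0 in 7 of 8 WT IMN libraries, in every WT vehicle and every Brd1+/- IMN library, and ran from 0 through 0.474 to 1.01 TPM in Brd1+/- vehicle mice (limma adjusted p = 0.00262). It passed the filter only through that group with 1 WT IMN library, so it had to differ. The imipramine count was 6 to 9 without Brd1+/- vehicle replicate 1, 4, 5, 6 or 8.

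With fluoxetine the called interactions joined genes of the vehicle contrast, 8 of the 11, with genes of the FLX contrast. Those of the 8 that passed the filter mainly through the Brd1+/- vehicle libraries had to differ, so their calls are no support. Gm15893 (log2 -1.25 ± 0.32, limma adjusted p = 0.0351) and its partner Msi2 (log2 -0.95 ± 0.22, limma adjusted p = 0.021) were called together, as no other pair was. Gm13629 (log2 -2.84 ± 0.66, limma adjusted p = 0.021) and Gm26782 (log2 -2.16 ± 0.50, limma adjusted p = 0.0185) were called without their partners. Gm26782 had 6.30 ± 3.07 TPM with vehicle and 15.2 ± 3.80 TPM with fluoxetine in WT mice, against 9.98 ± 5.55 and 5.73 ± 3.05 TPM in Brd1+/- mice. Gm26771, tail-to-tail with Sfrp2, the gene of a secreted Wnt inhibitor, had a difference of -4.43 ± 1.04 (log2, limma adjusted p = 0.0212) and was at 0 in 6 of 8 WT vehicle and 5 of 8 Brd1+/- FLX libraries. Gm10648 was the 1 gene with the higher effect in Brd1+/- mice (limma adjusted p = 0.0371), and its call was lost in 14 of the 32 fits without 1 library.

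The interaction also reached antisense genes of some abundance, which pass a filter without help of 1 group. Gm13112, tail-to-tail with Ttc34, had medians of 2.70 (WT vehicle), 10.3 (WT FLX), 5.36 (Brd1+/- vehicle) and 2.15 TPM (Brd1+/- FLX), with wide overlap (log2 -3.53 ± 0.95, limma adjusted p = 0.0486), and the call was lost in 22 of 32 fits without 1 library. Gm26703, named after its values were seen, starts head-to-head with Sparcl1, the gene of a synaptogenic protein secreted by astrocytes, and shares no exonic base with it. It had 5.69 ± 1.97 TPM in WT vehicle, 8.78 ± 1.15 TPM in WT FLX, 9.32 ± 3.19 TPM in Brd1+/- vehicle and 5.68 ± 1.82 TPM in Brd1+/- FLX mice (log2 -1.38 ± 0.31, limma adjusted p = 0.0169). Sparcl1 had 1164 ± 347, 1715 ± 202, 1527 ± 393.8 and 1238 ± 301 TPM in the same order (log2 -0.91 ± 0.25, limma adjusted p = 0.0549), so both genes of the pair were higher with fluoxetine in WT and lower in Brd1+/- mice by their means.

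Antisense genes of imprinted, patterning and synaptic loci did not pass the test in any of the 9 comparisons. Of 7 imprinted antisense genes listed, Airn, Kcnq1ot1 and Nespas were members, and 0 of the 3 were called by limma in each comparison, with 0 or 1 at an unadjusted p under 0.05. Airn, which starts inside Igf2r, had group means from 2.24 ± 1.20 (Brd1+/- FLX) to 2.88 ± 0.995 TPM (WT IMN), and Igf2r 12 ± 1.59 to 13.4 ± 2.07 TPM. Kcnq1ot1, inside the potassium channel gene Kcnq1, had 0.809 ± 0.130 to 1.15 ± 0.295 TPM. Of 26 listed antisense genes of homeobox and patterning genes 14 were members, 8 or 9 were tested and 0 were called by limma, with 0 to 2 at an unadjusted p under 0.05. Among them Dlx6os1, from the Dlx5 and Dlx6 locus of inhibitory neurons, had 11.3 ± 5.63 (WT FLX) to 18.8 ± 5.43 TPM (WT vehicle), and Dlx1as 8.40 ± 5.21 (WT IMN) to 15.2 ± 5.87 TPM (WT vehicle). Of 17 listed antisense genes of signalling and synaptic genes 4 were members, 2 or 3 were tested, and 0 were called by limma or had an unadjusted p under 0.05. Of the 234 with names ending in os or as, 109 were tested in vehicle mice and 6 called, with a median difference of 0.21, and in Brd1+/- mice imipramine called 4 of 104 and fluoxetine 5 of 110, all lower. Of all genes 0.708%, 0.776% and 0.731% were called, in the same order. Rab11fip4os1 and Dnmt3aos, both called in each of these, passed the filter only or mainly through the Brd1+/- vehicle libraries, so their calls are no support.

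Across the 48 libraries the level of an antisense gene followed its partner in 2 of the 7 pairs tested, the 2 given markers and the 5 most abundant genes. Both of these pairs share exonic bases, 329 of 2810468N07Rik (15.5%) and 293 of E130307A14Rik (4.1%). Over these stretches reads of antisense gene and partner cannot be told apart. 2810468N07Rik rose with Sox8, the gene of a transcription factor of glia from which it diverges (Pearson r = 0.67, Spearman rho = 0.66, permutation adjusted p = 7e-05 for both, where the unadjusted 1e-05 is the smallest p that 100000 resamples can give). Values were similar within the 16 vehicle libraries (r = 0.70), within the 32 drug-treated libraries (r = 0.68), after subtraction of group means (r = 0.72) and without the 2 libraries farthest from the median of Sox8 (r = 0.60). E130307A14Rik rose with Traf3ip2, the gene of an adaptor of interleukin-17 signalling (r = 0.46, permutation adjusted p = 0.00402; rho = 0.35, permutation adjusted p = 0.053), but without 2 libraries r was 0.30 (permutation adjusted p = 0.119), so the relation rested on them, and within vehicle libraries it was 0.36 (permutation adjusted p = 0.386).

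For the other 5 pairs no relation passed the test. The values were r = -0.17 for Gssos2 and Gss (permutation adjusted p = 0.282; rho = -0.15, adjusted p = 0.374), 0.24 for Gm42477 and Rogdi (permutation adjusted p = 0.139; rho = 0.32, adjusted p = 0.0665), 0.27 for 9530082P21Rik and Kremen2 (permutation adjusted p = 0.139; rho = 0.22, adjusted p = 0.217), 0.25 for Tug1 and Morc2a (permutation adjusted p = 0.139; rho = 0.21, adjusted p = 0.22) and -0.05 for 4933431E20Rik and Eps8l3 (permutation adjusted p = 0.759; rho = -0.08, adjusted p = 0.623). Eps8l3 was listed at 0 in 46 of 48 libraries, and no r could be given without its 2 farthest libraries.

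As a description over all 839 pairs with enough detected libraries, the correlation of antisense gene and partner after subtraction of group means had a median r of 0.21 over 48 libraries, with quartiles of 0.015 and 0.45, and 174 pairs (20.7%) were above 0.5 while 7 were below -0.5. For the same antisense genes and the nearest coding gene that they do not overlap the median was 0.085, with 75 (8.94%) above 0.5. All pairs share the same 48 libraries with their depth and makeup of tissue, for both distributions. By arrangement the median was 0.23 for head-to-head pairs and for pairs with the antisense gene inside the partner, and 0.14 for the 175 tail-to-tail pairs, and it was 0.089 for the 64 genes with over 50% of their exonic bases shared. Among the highest values, named after they were seen, were 0.93 for Gm13716 with Lrrc55, a subunit of potassium channels, 0.93 for Sorbs2os with Sorbs2, 0.92 for A830082K12Rik with Nr2f1, a nuclear receptor of brain patterning, and 0.91 for Gm15813 with Phactr1. Of their exonic bases 32.9%, 42.5%, 1.49% and 0% are shared with the partner, in the same order. Reads over shared bases cannot be told apart, nor can reads of unspliced partner RNA over antisense exons in its introns. A830082K12Rik ran with Nr2f1 over a wide range: group means were 21.5 ± 9.55 to 29.3 ± 18.4 TPM, with single libraries from 3.11 to 54.2 TPM, while Nr2f1 had single libraries from 9.09 to 99.8 TPM.

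**Figure D4:**
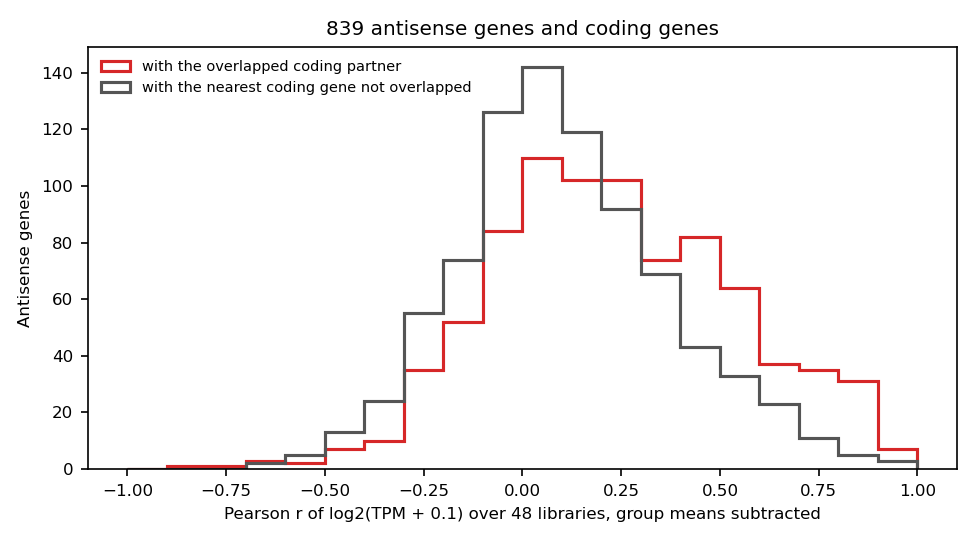
Distribution of Pearson r over 48 libraries, with group means subtracted, between 839 antisense genes and their overlapped coding partner (red) or the nearest coding gene not overlapped (grey), as number of antisense genes per bin of r. The red curve lies to the right, with a median of 0.21 against 0.085, and few pairs lie below -0.5 in either.

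The lowest correlation, also named after it was seen, came from a pair that traded places. Gm10143 lies opposite Fen1, the gene of a flap endonuclease of DNA replication and repair, with 57.3% of its exonic bases shared, and its printed stretch is wholly the reverse complement of Fen1 coding sequence (r = -0.89 with group means subtracted). In 9 libraries Gm10143 had 5.99 to 9.40 TPM and Fen1 0 to 1.08 TPM, and in the other 39 Gm10143 had 0 to 1.56 TPM and Fen1 5.49 to 13.3 TPM. The sum of both stayed within 5.54 to 13.5 TPM (median 10.3 TPM). The 9 libraries were 2 of WT IMN, 4 of Brd1+/- IMN, 2 of WT FLX and 1 of Brd1+/- FLX mice, and none of the vehicle groups, whose sample codes lie in another range. For the shared stretch reads of the genes of this pair cannot be told apart, since the strand of counting is not stated. B130046B21Rik and Prkag1, a subunit of the energy sensor AMPK, came next by r with group means subtracted (-0.75), at 4.77 to 14.2 against 42.7 to 64.5 TPM with a sum of 56.0 to 74.8 TPM.

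**Figure D5:**
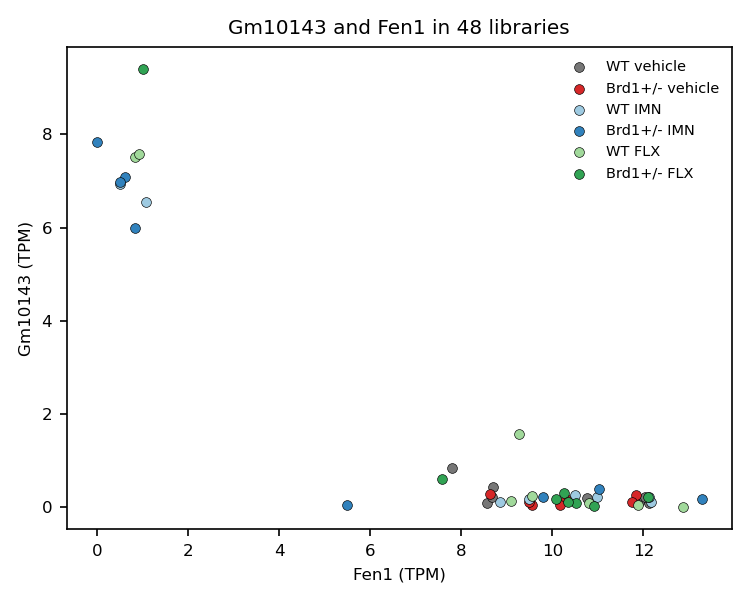
Level of Gm10143 against that of Fen1, both in TPM, in the 48 libraries coloured by group. The points fall in an upper left set of 9 drug-treated libraries, with Gm10143 at 5.99 to 9.40 TPM, and a lower right set of 39, with Fen1 at 5.49 to 13.3 TPM.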

How the data were processed

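The authors aligned 50 bp single-end reads to GRCm38 with HISAT2 2.1.0, quantified Ensembl genes with StringTie 1.3.4 and tested counts with edgeR. They deposited TPM, 1 column per library (column sums 999524 to 999772), and whether strand was used in counting is not given in the sources used here. Depth is unknown, so no interval was computed. TPM are not counts, so limma 3.58.1 (R 4.3.3, eBayes with trend) was run on log2(TPM + 0.1), which understates changes of low genes, on the groups compared alone and without covariates, for genes with at least 0.1 TPM in at least 8 libraries of the fit. Tests were two-sided, and a Benjamini-Hochberg adjusted p under 0.05 over all genes was called. Interactions were fitted on 4 groups.

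Classes, overlaps and exons came from GENCODE M21 (GRCm38), which held 52489 of the 52636 gene IDs. Named genes were the 2 given markers, the 5 most abundant members, every called member (where more than 10 were called, up to 5 per direction with the largest difference and at least 1 TPM in the higher group), called pairs and members of the lists. Others are said to be named after their values were seen. Members and lists were chosen with earlier results of these data known. Each library is a separate mouse. Pair correlations used 100000 permutations. The replicate numbers that the groups share did not pair the libraries and were used only in an alternative. Some sequences and the values of 1 pair are not reported here.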

Additional observations from a re-analysis of the deposited data

Results flagged for a closer look

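In 12 cases the highest or lowest library of a group of 8 stood apart from the rest, by a gap that chance gives in about 1 group in 20 for normally distributed values. Many genes were examined in 6 groups each, so some such cases arise by chance. The 12 were not set against the number that chance would give. Groups with at least 4 libraries above 0 were examined. The highest libraries were 3.74 TPM for Gssos2 (Brd1+/- FLX replicate 7), 3.74 TPM for Gm42477 (WT vehicle replicate 5), 1.75 TPM for Gm12925 (WT IMN replicate 1), 1.001 TPM for Srrm3os (WT FLX replicate 1), 3.29 TPM for 9330171B17Rik (WT vehicle replicate 7) and 0.561 TPM for Gm10648 (Brd1+/- FLX replicate 7). For Gm13629 Brd1+/- IMN replicate 5 had 19.99 TPM. B230323A14Rik had 5.24 TPM in WT IMN replicate 4 and 3.16 TPM in Brd1+/- IMN replicate 5, and Gm29246 had 1.71 TPM in Brd1+/- vehicle replicate 3 and 1.07 TPM in Brd1+/- FLX replicate 6. The summed level of all antisense genes was lowest in Brd1+/- FLX replicate 4, at 2233 TPM. The cause was not tested for any of these.

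The drug effect of named antisense genes differed between genotypes by the limma interaction test in 21 cases, as fitted differences on the log2(TPM + 0.1) scale. Where a group was listed at 0 in all libraries, the fitted value depends on the added 0.1 TPM and is no bound. Of the genes listed here, those of the vehicle contrast and Gm14224 passed the filter mainly through the Brd1+/- vehicle libraries. They had to differ, so their calls are no support. With imipramine the values were -3.11 for 4933407I08Rik, -3.22 for Gm11659, -2.82 for Gm10538, -2.14 for Dnmt3aos, -3.01 for Rab11fip4os1 and -2.65 for Gm14224. With fluoxetine, genes of the vehicle contrast had -2.60 (4933407I08Rik), -3.10 (Gm11659), -3.07 (Gm10538), -1.92 (Dnmt3aos) and -2.33 (Rab11fip4os1). Genes of the FLX contrast had -1.33 (9330171B17Rik), -1.25 (Gm15893), -2.84 (Gm13629), -2.16 (Gm26782), -3.78 (B230323A14Rik) and 1.74 (Gm10648). The remaining ones were -4.99 for Gm31224, -1.12 for D830024N08Rik, -4.43 for Gm26771 and -3.53 for Gm13112. The call of Gm13112 was lost in 22 of 32 fits without 1 library, and that of Gm15893 in 11.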

How the results depend on the processing

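With TPM of at least 1 in at least 8 libraries the antisense genes called numbered 0 (vehicle genotype, 13 as reported), 3 (FLX in WT, 1), 1 (IMN in Brd1+/-, 11), 2 (FLX in Brd1+/-, 16), 0 (IMN interaction, 14) and 6 (FLX interaction, 22), where fewer genes were tested. Without a filter 25 were called in vehicle mice and 24 with imipramine in Brd1+/- mice. Among genes with shared exonic bases alone the counts were 5 (vehicle), 3 (IMN in Brd1+/-), 6 (FLX in Brd1+/-), 4 and 11 (IMN and FLX interactions). One fit of all 48 libraries gave 22 (vehicle), 4 (FLX genotype, 9), 0 (FLX in WT) and 17 (IMN in Brd1+/-), and a pseudocount of 1 TPM gave 15 in FLX mice. Without the libraries high in markers of other tissues, chosen after seeing the data, counts were 21 (vehicle), 1 (FLX genotype), 14 (FLX in WT), 7 (IMN in Brd1+/-), 8 (FLX in Brd1+/-) and 7 (IMN interaction). Except for the shared-exon restriction and the stricter filter, the cause was not tested. For E130307A14Rik and Traf3ip2 r was 0.31 with median-ratio scaling, 0.36 within vehicle libraries and 0.30 without 2 libraries. No call changed its direction, but the r of 4933431E20Rik and Eps8l3, not past the test, was -0.05 as reported and 0.14 with median-ratio scaling, 0.055 within vehicle libraries and 0.0086 with group means subtracted.

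Leaving out 1 library gave 6 to 20 (vehicle), 3 to 14 (FLX genotype), 0 to 24 (FLX in WT), 5 to 12 (IMN in Brd1+/-), 8 to 14 (FLX in Brd1+/-), 6 to 15 (IMN interaction) and 15 to 33 (FLX interaction). Genotype in IMN mice and imipramine in WT mice stayed at 0 in each. Genes detected in no more than 8 libraries drop out of the test when 1 of these is left out.

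The groups share replicate numbers 1 to 8, which the labels tie to nothing else. Deviations of same-numbered libraries had median correlations of -0.07 to 0.13, and 0 to 2 of 8 correlated best with their own number, so the numbers did not pair them. With the replicate number as a block 6 (vehicle), 2 (FLX genotype), 0 (FLX in WT) and 6 (FLX in Brd1+/-) antisense genes were called. Of the single calls, 39 were kept and 30 lost under the block.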
